A study of Mus musculus with 15 samples.

Results

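Srebf1 (gene identifier 20787) encodes sterol regulatory element-binding protein 1, the transcription factor that drives fatty acid and triglyceride synthesis in the liver. It was taken as 1 gene of the 16809 in the deposited liver table, by its symbol. It was chosen by its read counts across the 5 groups, which were known to differ from an earlier look at these data. Its own levels and differences are therefore given as a description, with no test, and tests are given only for other genes.

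The study measured liver RNA of wild-type mice in 15 libraries, 3 in each of 5 groups, to ask how flavonols act on lipid-related transcripts in hyperlipidemic mice. Control mice ate standard feed. Model mice ate a diet of 78.8% standard feed with 10% lard, 10% powdered egg yolk, 1% cholesterol and 0.2% sodium cholate. The other groups received quercetin (200 mg/kg/day), myricetin (75 mg/kg/day) or kaempferol (100 mg/kg/day) by gavage while eating a high-fat diet, whose composition is not stated and is taken here as that of the model. Feeding lasted 6 weeks in every group. Quercetin, myricetin and kaempferol are flavonols that differ in the number of hydroxyl groups on the B ring. Their doses differed too, so their values are set side by side and no difference between compounds was tested. Sex, strain, hour of collection, fasting, gavage of control and model mice, and whether a group's 3 libraries were 3 different mice are not given in the labels. The p-values therefore measure the spread between libraries, which may be technical.

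SREBP-1 is made as a precursor held in the endoplasmic reticulum by SCAP and the INSIG proteins, and it becomes active after the proteases encoded by Mbtps1 and Mbtps2 cut it free in the Golgi. The gene has alternative first exons, and SREBP-1c, the main form in liver, is known to be switched on by insulin and by the oxysterol receptors LXR alpha and LXR beta. Its relative SREBP-2, encoded by Srebf2, mainly serves cholesterol synthesis and is held back by cholesterol at the step of release from the membrane. An mRNA level therefore says nothing by itself about the amount of active SREBP-1.

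The gene lies on the minus strand of chromosome 11 in GRCm38.p6, from 60199084 to 60224186. The promoter table drawn from RefSeq (GRCm38.p6) holds 3 start sites for it, at 60222581, 60220627 and 60210471. The most downstream of them belongs to the first exon of SREBP-1c, and the 250 bases before it are printed because both LXR elements of the gene stand there. Capitals mark the matches to a motif, and the sequence reads 5′ to 3′ on the strand of the gene, chr11:60210472-60210721 on the minus strand.

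Srebf1 downstream start: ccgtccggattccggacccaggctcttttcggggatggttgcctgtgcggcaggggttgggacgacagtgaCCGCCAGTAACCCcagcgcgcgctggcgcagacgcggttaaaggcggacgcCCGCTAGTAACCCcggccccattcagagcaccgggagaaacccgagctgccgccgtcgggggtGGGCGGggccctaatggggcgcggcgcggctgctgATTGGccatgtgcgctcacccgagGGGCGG

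The LXR element searched was GGGTTANNNNCGG, on both strands. Its letters were taken from the elements known in the Srebf1 promoter, so the matches there follow from that choice. They lie 179 to 167 and 128 to 116 bases before the start, both on the opposite strand. Of 32851 promoter windows of this length, 37 (0.113%) held the element. A box for the factor NF-Y (CCAAT, in 33.8% of windows) lies 30 to 26 bases before the start, and Sp1 boxes (GGGCGG, in 32.7% of windows) lie 65 to 60 and 6 to 1 bases before it. Neither the sterol regulatory element TCACNCCAC (1.05% of windows) nor the E-box CACGTG (6.02%) was found in any of the 3 Srebf1 windows. Both were searched by these letters alone, so variants of them would be missed and their absence is not shown. The window of the middle start held 2 Sp1 boxes and that of the most upstream start 1 NF-Y box. These are matches of letters and not measured binding sites.

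**Figure D1:**
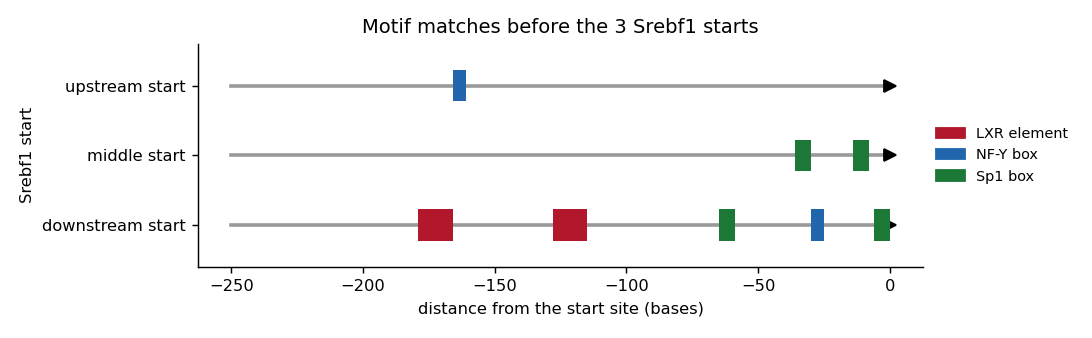
Matches of the LXR element (red), the NF-Y box (blue) and the Sp1 box (green) in the 250 bases before each of the 3 Srebf1 starts, with the distance from the start in bases on the horizontal axis. Both LXR elements stand before the downstream start, at 179 and 128 bases, and no other window of the gene holds one.

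The same LXR element was found before Fasn, the fatty acid synthase gene and a target of both LXR and SREBP-1, and before Abca1, the cholesterol efflux transporter and an LXR target. A sterol regulatory element was found before Hmgcs1, a gene of cholesterol synthesis. These sites are shown because the levels of these genes or of their lists are set beside Srebf1. Each carries 15 flanking bases on either side (chr11:120824742-120824784 and chr4:53159932-53159974, both minus strand, and chr13:119690199-119690237, plus strand).
Fasn, LXR element: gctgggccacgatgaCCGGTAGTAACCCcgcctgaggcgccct
Abca1, LXR element: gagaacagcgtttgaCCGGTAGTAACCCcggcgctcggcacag
Hmgcs1, sterol regulatory element: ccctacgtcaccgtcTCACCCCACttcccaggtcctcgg
Promoter windows were found for 17 of the 22 lipogenic genes in the list used here, 19 windows in all, and Fasn was the 1 gene among them with the LXR element. The sterol regulatory element was in 0 of these 17 genes and in 1 of 15 SREBP-2 target genes with a window.

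Srebf1 was lowest on standard feed, higher in the model, highest with quercetin, and with kaempferol close to the level on standard feed. Levels here are CPM, the counts of a gene relative to the TMM-scaled size of its library. The control libraries, replicates 1, 2 and 3, had 128.3, 155.1 and 211.0 CPM. The model libraries, replicates 1, 2 and 5, had 401.2, 336.4 and 401.5 CPM. Each model library was above each control library. With quercetin, replicates 2, 5 and 8 had 633.4, 500.8 and 499.5 CPM, each above the highest model library. With myricetin, replicates 5, 7 and 8 had 371.0, 287.5 and 310.7 CPM, and the range overlapped that of the model. With kaempferol, replicates 3, 5 and 8 had 195.9, 152.3 and 180.2 CPM, each below the lowest model library and all within the range of the control. These levels rest on 2024 to 11396 expected counts of Srebf1 per library.

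**Figure D2:**
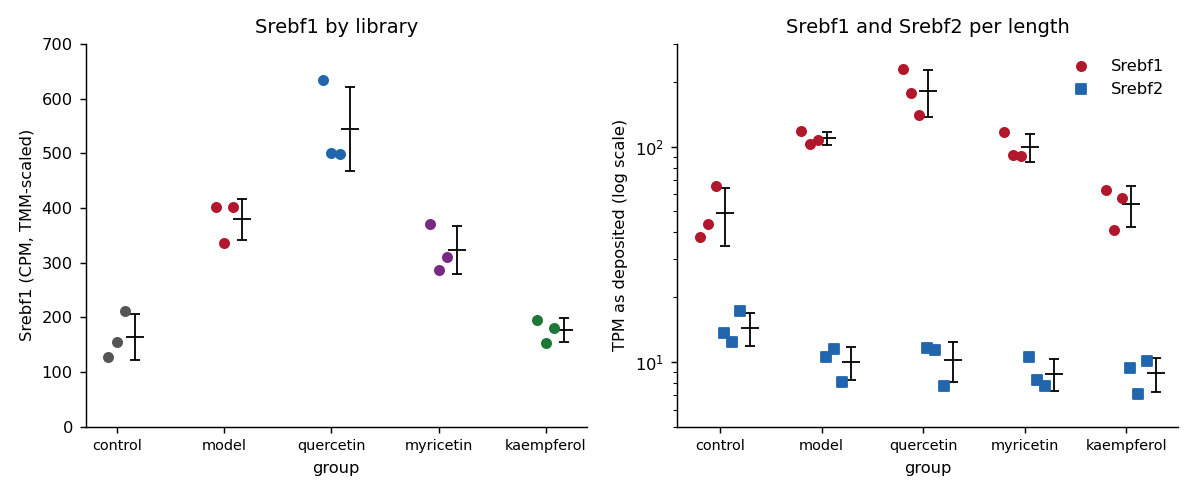
Left, Srebf1 in CPM for each library by group; right, Srebf1 (red circles) and Srebf2 (blue squares) in TPM on a log axis. Points are libraries, and the cross bars with whiskers are the mean and SD of 3 libraries. The quercetin libraries lie at 499.5 CPM and above, and the kaempferol libraries lie among those of the control, while Srebf2 stays between 7.09 and 17.2 TPM throughout.

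As means ± SD with n = 3, Srebf1 stood at 164.8 ± 42.2 CPM in the control, 176.1 ± 22.1 with kaempferol, 323.1 ± 43.1 with myricetin, 379.7 ± 37.5 in the model and 544.6 ± 76.9 with quercetin. The relative spread was widest in the control, with a coefficient of variation of 25.6%, against 9.87% to 14.1% in the other groups. In this order, the control and kaempferol lay within their spread, 11.3 CPM apart with overlapping ranges and a summed SD of 64.3 CPM. Myricetin and the model did so too (56.6 CPM, summed SD 80.6, ranges overlapping). The ranges of the model and quercetin, 164.9 CPM apart in the mean, did not overlap. Because the gene was chosen on these counts, the order describes the 15 libraries and tests nothing.

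The model mean was 2.3 times that of the control, and the fitted log2 difference was 1.20. Quercetin stood at 1.43 times the model, a log2 difference of 0.52 ± 0.17 (SE), and at 3.3 times the control. Myricetin stood at 0.851 times the model (log2 difference -0.23). The model stood at 2.16 times kaempferol (log2 difference of kaempferol against the model -1.11 ± 0.17, SE). Leaving out each library in turn gave 1.05 to 1.42, 0.40 to 0.58, -0.34 to -0.15 and -1.21 to -1.02 for these differences. Where the ranges of 2 groups did not overlap, leaving out 1 library could not change the direction. There the values show only how far the size moved. The 3 flavonol comparisons share the model libraries, and the model libraries also enter the comparison with the control. The differences are therefore not independent of each other.

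Per transcript length, Srebf1 was an abundant mRNA and far above its relative Srebf2. Its mean over the 15 libraries was 99.0 TPM, rank 984 of 16809 genes. Mlxipl, which encodes the glucose-responsive lipogenic factor ChREBP, stood at 166.0 TPM, the LXR alpha gene Nr1h3 at 70.3 and Srebf2 at 10.5. Srebf1 had 49.3 TPM on standard feed, 109.6 in model livers, 182.2 under quercetin, 99.9 under myricetin and 53.9 under kaempferol. Srebf2 had 14.4, 10.0, 10.2, 8.83 and 8.84 TPM in the same groups. The ratio of Srebf1 to Srebf2 in TPM was 2.79 to 3.84 over the control libraries and 9.03 to 13.4 over those of the model. It was 15.8 to 19.6 with quercetin, 11.1 to 11.8 with myricetin and 5.75 to 6.7 with kaempferol. Only the model and myricetin ranges of this ratio overlapped, and kaempferol stayed above the control in it, with every Srebf2 value there lower than on standard feed. The mean transcript length implied for Srebf1 by the deposited counts and FPKM varied by 0.251% over the libraries, against a median of 0.345% over 2227 genes, so the length used by the counting was the same in all groups. The table does not separate the SREBP-1a and SREBP-1c forms.

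The libraries held 15.85 to 17.58 M expected counts and 14615 to 14929 detected genes. Over the 12658 genes that passed the filter on low counts, the edgeR test called 565 genes (4.46%) for the model against the control, 990 (7.82%) for quercetin, 50 (0.395%) for myricetin and 5 (0.0395%) for kaempferol, each against the model. Leaving out 1 library moved the first count to between 82 (control replicate 2 left out) and 919 (control replicate 1). The second moved to between 429 (model replicate 2) and 788 (quercetin replicate 8), the third to between 13 (model replicate 2) and 65 (myricetin replicate 5), and the fourth to between 0 (model replicates 2 and 5, kaempferol replicate 3) and 39 (kaempferol replicate 5). The median log2 difference of all genes lay between -0.008 and 0.01. The unadjusted p was under 0.05 for 2743, 2929, 1505 and 1475 of the 12658 genes in the same 4 comparisons, in either direction. Unadjusted counts of list members below are to be read beside these. DESeq2 called more genes than edgeR over all genes in the model, myricetin and kaempferol comparisons, with totals in the closing section. DESeq2 counts of list members are therefore not to be read beside the edgeR shares. Hepatocyte markers summed to 108000 to 123000 CPM in the control and 81900 to 101000 in the model. Most of that sum was Alb, with means of 78430 CPM in the control and 53100 in the model (edgeR adjusted p = 0.0661). Of the 9 markers 7 were on the lower side and 2 on the higher, with a list median of -0.23. By edgeR 1 of the 9 fell and 0 rose. Hnf4a, the hepatocyte factor, fell by 0.72 in the model, and that call was lost without some libraries, with an edgeR adjusted p of up to 0.0863 without model replicate 5. All 8 macrophage markers were measured, and Clec4f, Cd68 and Csf1r rose in the model, where the list summed to 181 to 269 CPM against 81.4 to 143 in the control. The sum was 250 to 279 CPM with quercetin, 244 to 348 with myricetin and 313 to 817 with kaempferol. The top of the kaempferol range was replicate 8 alone. There Cd5l had 295.3 CPM (93.5 and 98.9 in replicates 3 and 5) and Marco 198.2 (12.3 and 16.9). Of 7 endothelial markers Cdh5, Stab2 and Gpr182 rose in the model, and the list summed to 77.6 to 126 CPM in the control and 135 to 184 in the model. Each of these 6 calls was lost without some library, with edgeR adjusted p-values of up to 0.146 for Csf1r without model replicate 5. Of the 6 adipocyte markers 5 were in the table, and they summed to 2.71 to 5.03 CPM in the control and 7.53 to 30.5 in the model. Adipoq, Retn and Plin1 were at 0 in all control libraries and at most 0.116 CPM elsewhere. Cfd had 0.0634, 0.0644 and 0.0621 CPM in the control and 2.39, 2.04 and 23.6 in the model, and it rose (edgeR adjusted p = 0.0287, and up to 0.124 without control replicate 2). Fabp4 had a log2 difference of 0.67 (edgeR adjusted p = 0.164). In whole liver, fewer cells of a type and less RNA per cell cannot be told apart, and the part of these markers in the Srebf1 differences was not tested.

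The genes that carry SREBP-1 from precursor to active factor were listed with its relative Srebf2, 11 in all. Of these, 1 fell and none rose in the model against the control by edgeR (2.27% of all genes tested fell and 2.2% rose). A list of 11 is too short to set such counts apart from these shares. By unadjusted p under 0.05, 4 of the 11 were higher and 2 lower, and DESeq2 called 0 higher and 2 lower. The list median was 0.19, beside -0.01 over all genes. The gene that fell was Srebf2, by 0.50 ± 0.12 on the log2 scale (edgeR adjusted p = 0.0272, and up to 0.148 without model replicate 5). Scap, the escort of the precursor, differed by 0.21 (edgeR adjusted p = 0.202) and the protease gene Mbtps1 by 0.27 (0.115). Insig1, which retains the precursor and is itself a target of nuclear SREBPs, had 340.2 ± 94.8 CPM in the control and 181.4 ± 18.7 in the model (SD, n = 3). That log2 difference of -0.91 ± 0.31 did not pass (edgeR adjusted p = 0.111), although the ranges did not overlap.

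Insig2, the other retention gene, was lowest with quercetin, where Srebf1 was highest, and highest with kaempferol. Its libraries had 181.2, 176.3 and 170.8 CPM in the control, 231.4, 232.4 and 223.8 in the model, and 62.5, 42.1 and 119.9 with quercetin. The quercetin libraries were the lowest of all 15. With myricetin it had 239.6, 174.8 and 171.3 CPM, and with kaempferol 303.3, 345.5 and 247.8, each above every model library. Insig2 fell by 1.62 ± 0.29 with quercetin against the model (edgeR adjusted p = 0.00558), and the call was kept without each library in turn. It was lost when the model and quercetin groups were fitted alone (edgeR adjusted p = 0.0788). Insig2 was the 1 member of this list that fell with quercetin, where 3.76% of all genes fell, and none rose (4.06% of all genes; unadjusted, 0 higher and 2 lower; DESeq2, 0 and 1). The list median there was -0.14 beside 0.01 over all genes. With myricetin, where edgeR called 0.182% of all genes higher and 0.213% lower, and with kaempferol, where it called 0.0158% higher and 0.0237% lower, no member of the 11 passed. At unadjusted p under 0.05 there were 0 members with myricetin and 1, lower, with kaempferol, and DESeq2 called 0 and 1. That gene was Insig1, with 181.4 ± 18.7 CPM in the model and 87.2 ± 28.7 with kaempferol (SD, n = 3; log2 difference -1.06 ± 0.31, edgeR adjusted p = 0.2, DESeq2 0.0156).

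Neither LXR receptor gene, Nr1h3 or Nr1h2, passed edgeR in any comparison. Nr1h3 stood at 84.7 ± 8.87 CPM on standard feed, 88.9 ± 5.01 in model livers, 86.3 ± 5.51 under quercetin, 83.6 ± 10.6 under myricetin and 87.8 ± 3.32 under kaempferol (SD, n = 3). Its log2 difference was 0.07 in the model against the control (edgeR adjusted p = 0.748, 95% interval -0.17 to 0.30) and -0.04 with quercetin against the model (0.852, -0.28 to 0.19). None of the 8 genes of this list passed edgeR in the model against the control, with myricetin or with kaempferol (4.46%, 0.395% and 0.0395% of all genes). At unadjusted p under 0.05 there were 0 in the model against the control, 1 lower with myricetin and 1 higher with kaempferol, and DESeq2 called 0 in each. Nr1h2, for LXR beta, had 31.7, 28.9 and 29.6 CPM in the model and 35.4, 40.1 and 35.8 with quercetin, without overlap (log2 difference 0.30, edgeR adjusted p = 0.0589, DESeq2 0.0448). With quercetin 1 of the 8 fell and none rose by edgeR, where 3.76% of all genes fell and 4.06% rose. Unadjusted, 2 of the 8 were higher and 1 lower, and DESeq2 called 1 higher and 1 lower. The gene that fell was Ncor1, a corepressor that silences LXR targets without ligand, with 92.3, 92.7 and 82.0 CPM in the model and 55.0, 62.3 and 66.1 with quercetin. The log2 difference was -0.54 ± 0.11 (edgeR adjusted p = 0.00834), and it passed without each library in turn.

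Among 16 genes of insulin signalling, which feeds into Srebf1 through AKT and mTORC1, 1 rose in the model and none fell by edgeR. Over all genes 2.2% rose and 2.27% fell. Unadjusted, 2 of the 16 were higher and 1 lower, and DESeq2 called 2 higher and 0 lower. The gene that rose by edgeR was Irs2, an insulin receptor substrate known to be repressed by SREBP-1c. It had 8.94, 8.24 and 8.76 CPM in the control and 46.2, 31.3 and 25.0 in the model, a log2 difference of 1.98 ± 0.32 (edgeR adjusted p = 0.00916, at most 0.0479 without any 1 library). With quercetin it had 18.5, 16.7 and 15 CPM, with myricetin 16.2, 17.6 and 6.15, and with kaempferol 30.3, 33.7 and 27.9. The quercetin and myricetin libraries lay below every model library, but the log2 differences of -1.03 ± 0.30 and -1.36 ± 0.30 did not pass (edgeR adjusted p = 0.0539 and 0.0872). No member passed edgeR with quercetin, myricetin or kaempferol against the model (7.82%, 0.395% and 0.0395% of all genes did). Unadjusted, 3, 2 and 3 were lower and 0 higher, and DESeq2 called 1, 1 and 0, all lower. In the list of genes that respond to fasting, Igfbp1 and G6pc rose and Angptl8 fell in the model against the control, out of 10. Angptl8, a secreted factor induced by insulin and feeding, had 253.1, 262.1 and 373.3 CPM in the control and 18.7, 27.5 and 39.1 in the model, while Srebf1 was higher there. These 3 calls were lost without some library, with edgeR adjusted p-values of up to 0.073 (Igfbp1) and 0.086 (G6pc), both without control replicate 3, and 0.0654 (Angptl8) without model replicate 1. Feeding state at collection is not given, and its part was not tested. The receptor gene Insr differed by 0.05 in the model against the control and by -0.04 to -0.09 in the flavonol comparisons, with no call.

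Of 13 other factors known to act at the Srebf1 promoter or beside it, none passed in the model against the control, with myricetin or with kaempferol by edgeR. The shares over all genes there were 4.46%, 0.395% and 0.0395%. Unadjusted, 0 of the 13 were higher and 2 lower, 1 higher and 1 lower, and 0 higher and 2 lower. DESeq2 called 1 (lower), 0 and 0. The list holds the subunits of NF-Y, Sp1, Sp3, the E-box factors Usf1 and Usf2, ChREBP (Mlxipl) and its partner Mlx. Mlxipl differed by at most 0.18 on the log2 scale in the 4 comparisons, and the levels were 516.8 ± 64.5 CPM in the control, 550.9 ± 93.9 in the model and 593.1 ± 88.0 with quercetin (SD, n = 3). With quercetin, 1 of the 13 rose and 1 fell by edgeR, where 4.06% of all genes rose and 3.76% fell. Unadjusted, 5 of the 13 were higher and 1 lower, and DESeq2 called 1 and 1. Bhlhe41, a clock-linked repressor that binds E-boxes, had 0.735, 0.814 and 1.19 CPM in the model and 7.0, 5.38 and 8.37 with quercetin. It rose by 2.92 ± 0.35 (edgeR adjusted p = 0.000159) and did so without each library in turn. Sp3 fell by 0.48 ± 0.13 (edgeR adjusted p = 0.0393), a call lost without 5 of the libraries, with an adjusted p of up to 0.122 without quercetin replicate 2.

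Bhlhe41 belongs to the wider set of clock-linked genes. Of 15 genes of the circadian clock list, 11 passed edgeR with quercetin against the model, 6 higher and 5 lower (7.82% of all genes passed). The summed level of the 15 genes was 710 to 888 CPM with quercetin, 374 to 418 in the model and 414 to 527 in the control. It was 400 to 542 CPM with myricetin and 285 to 339 with kaempferol. Dbp, a clock output factor, had 2.20, 2.79 and 3.03 CPM in the model and 141.0, 162.8 and 125.5 with quercetin. Srebf1 is a gene with a known daily rhythm in liver, and the hour of collection is not given. The part of the clock difference in the Srebf1 level with quercetin was not tested. These 11 calls were kept without each library in turn. In the model against the control, edgeR called 1 of the 15 higher, the repressor Nfil3, and none lower (2.2% and 2.27% of all genes). Nfil3 reached an edgeR adjusted p of 0.106 without control replicate 2. Unadjusted, 2 were higher and 3 lower, and DESeq2 called 1 and 2. Per1 and Per2 lay below every control library (log2 differences -2.42 and -1.58, edgeR adjusted p = 0.0945 and 0.068). With myricetin edgeR called 3 of the 15 higher and 1 lower (0.182% and 0.213% of all genes). Some of these calls were lost without a library, with edgeR adjusted p-values of up to 0.149 (Dbp, without model replicate 2). Unadjusted, 3 were higher and 6 lower, and DESeq2 called 3 and 1. With kaempferol edgeR called none (0.0395% of all genes). Unadjusted, 1 of the 15 was higher and 6 lower there, and DESeq2 called 1 higher and 4 lower.

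None of the lipogenic genes that SREBP-1c is known to activate rose in the model, where Srebf1 was higher than in the control. Of 22 such genes, 3 fell and 0 rose by edgeR against the control. Over all genes 2.27% fell and 2.2% rose, so 0 higher is near the background. Unadjusted, 0 of the 22 were higher and 5 lower (2743 of all 12658 genes in either direction). DESeq2 called 0 higher and 5 lower. The list median was -0.33 beside -0.01 over all genes, and 16 of the 22 were on the lower side. Fasn had 304.6, 407.5 and 850.8 CPM in the control and 348.3, 509.1 and 263.5 in the model. The ranges overlapped, and the log2 difference was -0.48 ± 0.37 (edgeR adjusted p = 0.497, 95% interval -1.31 to 0.35). Scd1, the stearoyl-CoA desaturase, differed by 0.30 ± 0.35 (0.664, interval -0.48 to 1.09), Acaca, which makes malonyl-CoA, by 0.03 (0.935) and the elongase Elovl6 by -0.15 (0.739).

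Lpin1 and Fads1 were among the 3 genes that fell. Lpin1, a phosphatidic acid phosphatase of triglyceride synthesis, had 113.3, 170.1 and 42.4 CPM in the control and 23.0, 25.6 and 17.7 in the model, a log2 difference of -2.30 ± 0.51 (edgeR adjusted p = 0.0308). Fads1, a fatty acid desaturase, fell from 424.5 ± 74.5 to 225.2 ± 86.6 CPM (SD, n = 3; log2 difference -0.91 ± 0.24, edgeR adjusted p = 0.0485). No library of the model reached the lowest control library for either gene. These calls were fragile. Lpin1 missed the threshold without 4 of the 6 libraries and Fads1 without 5, with edgeR adjusted p-values of up to 0.137 without model replicate 5 and 0.13 without control replicate 3. With the model and control fitted alone they were 0.0925 and 0.174, and for Fads1 0.0709 with no filter on low counts.

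**Figure D3:**
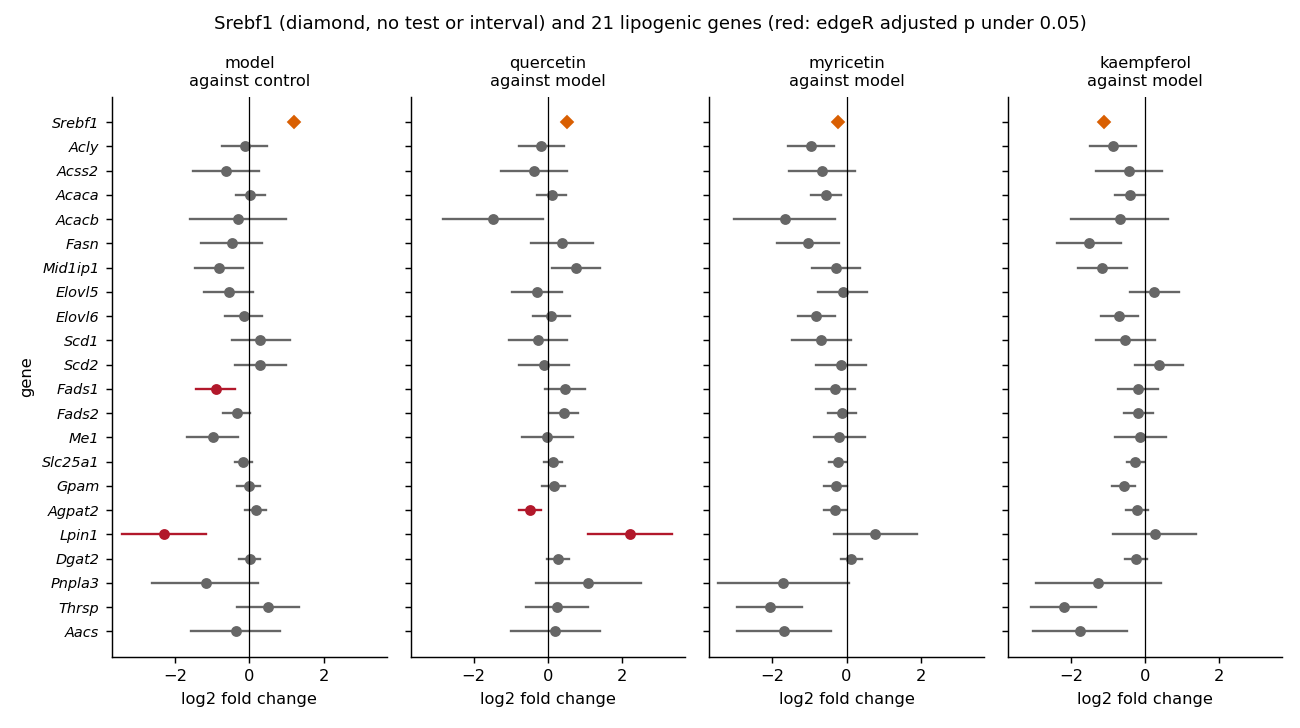
Log2 fold changes of Srebf1 (orange diamond, with no test and no interval) and of 21 of the 22 lipogenic genes (circles) in the 4 comparisons, with lines for the approximate 95% interval and red for an edgeR adjusted p under 0.05. In the model Srebf1 lies at 1.20 while 15 of the 21 genes drawn lie below 0, and with kaempferol Srebf1 and 18 of the 21 lie below 0.

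With quercetin, where Srebf1 was highest, 1 of the 22 lipogenic genes rose and 1 fell against the model (unadjusted, 3 and 2; DESeq2, 2 and 1). Over all genes 4.06% rose and 3.76% fell, so the count is near the background. The median was 0.15 beside 0.01 over all genes. Lpin1 rose, to 55.9, 157.2 and 91.1 CPM, a log2 difference of 2.20 ± 0.51 (edgeR adjusted p = 0.0247). Agpat2, an acyltransferase of phosphatidic acid synthesis, fell by 0.49 ± 0.13 (edgeR adjusted p = 0.0339). Both calls were lost without 4 of the 6 libraries, with adjusted p-values of up to 0.0874 for Lpin1 without model replicate 5 and 0.138 for Agpat2 without quercetin replicate 5. Fasn had 517.4, 566.2 and 382.0 CPM, and the log2 difference of 0.39 ± 0.37 did not pass (edgeR adjusted p = 0.584).

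With kaempferol, where Srebf1 was lowest among the high-fat groups, no lipogenic gene passed edgeR, while 19 of 22 were on the lower side and the median was -0.42 (0.01 over all genes). Over all genes edgeR called 0.0395%, and 1475 of 12658 had an unadjusted p under 0.05. Of the 22, 9 were lower and 0 higher by unadjusted p, and DESeq2 called 5, all lower. Fasn had 157.5, 84.4 and 149.7 CPM, below every model library, a log2 difference of -1.52 ± 0.38 (edgeR adjusted p = 0.153, DESeq2 0.0182). Thrsp, the Spot 14 gene that accompanies lipogenesis, had 194.1, 327.7 and 257.0 CPM in the model and 63.9, 62.6 and 44.8 with kaempferol (log2 difference -2.18 ± 0.39, edgeR adjusted p = 0.0711, DESeq2 4.96e-05). Mid1ip1, which promotes polymerisation of acetyl-CoA carboxylase, had 58.4 ± 9.31 CPM in the model and 26.4 ± 8.87 with kaempferol (SD, n = 3; edgeR adjusted p = 0.156).

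With myricetin, where Srebf1 overlapped the model, no gene of the 22 passed edgeR, while 19 were on the lower side and the median was -0.30 (0.01 over all genes). Over all genes edgeR called 0.395%, and 1505 of 12658 had an unadjusted p under 0.05. Of the 22, 10 were lower and 0 higher by unadjusted p, and DESeq2 called 3, all lower. Fasn had 212.5, 167.5 and 167.8 CPM, below every model library (log2 difference -1.03 ± 0.38, edgeR adjusted p = 0.297). Thrsp had 56.3, 36.8 and 91.8 CPM (log2 difference -2.07 ± 0.39, edgeR adjusted p = 0.0543, DESeq2 5.45e-05). The myricetin and kaempferol comparisons share the 3 model libraries, and the difference between these compounds was not tested because the doses differ.

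**Figure D4:**
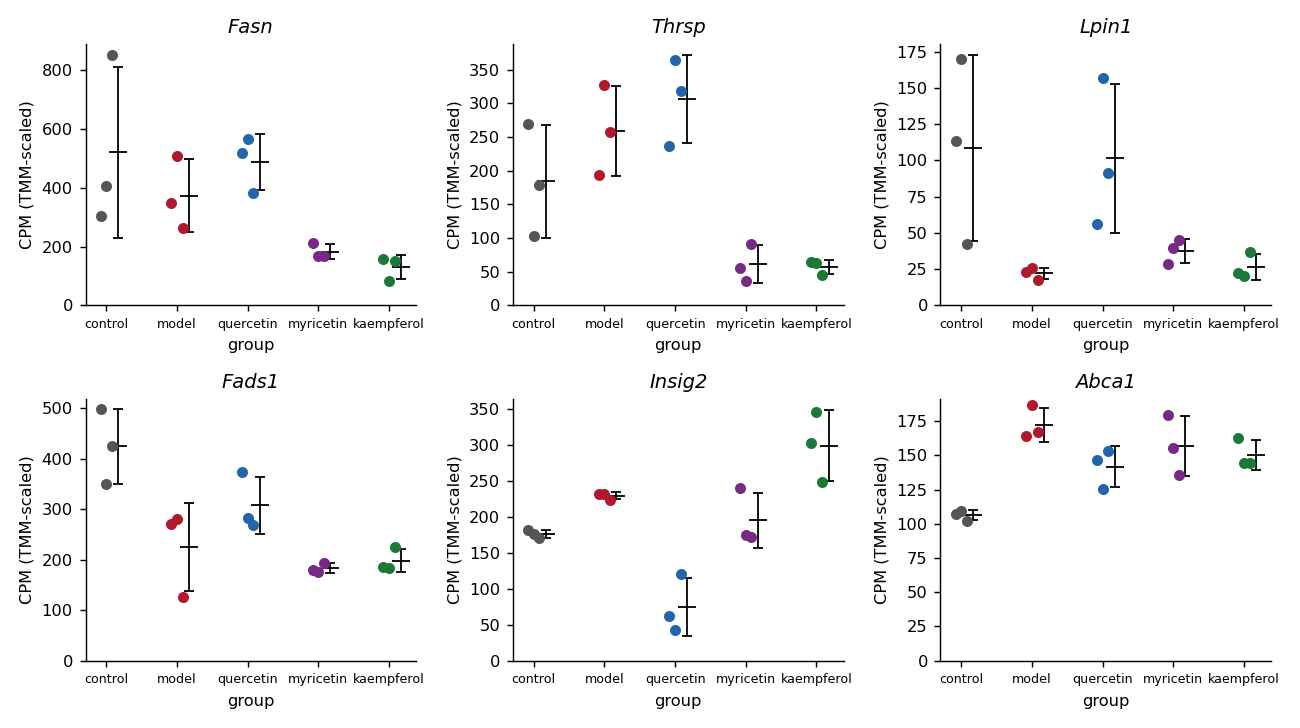
CPM of Fasn, Thrsp, Lpin1, Fads1, Insig2 and Abca1 in each library by group, with the mean and SD of 3 libraries as a cross bar with whiskers. Lpin1 and Fads1 are lower in every model library than in every control library, Insig2 is lowest with quercetin (42.1 to 119.9), and Abca1 is higher in every model library than in the control.

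Other LXR targets were compared with Srebf1, which is one itself. In the model against the control, 1 of 10 rose and none fell by edgeR, where 2.2% of all genes rose and 2.27% fell. Unadjusted, 5 of the 10 were higher and 1 lower, and DESeq2 called 4 and 1. The list median was 0.72 beside -0.01 over all genes. The gene that rose by edgeR was Abca1, with 106.9, 109.5 and 102.2 CPM in the control and 164.2, 186.9 and 166.8 in the model (log2 difference 0.70 ± 0.11, edgeR adjusted p = 0.00584, at most 0.0314 without any 1 library). The count was 2 when control replicate 1 was left out and 3 when model replicate 2 was. With quercetin, 2 of 10 rose and none fell by edgeR, with a median of 0.20 (4.06% of all genes rose and 3.76% fell). Unadjusted, 2 of the 10 were higher and 1 lower, and DESeq2 called 2 and 0. Those that rose were Abcg5 and Abcg8, which together encode a sterol exporter into bile and lie next to each other in the genome. Abcg5 had 107.9, 54.7 and 133.1 CPM in the model and 369.0, 142.8 and 244.6 with quercetin (log2 difference 1.36 ± 0.34, edgeR adjusted p = 0.0319). Abcg8 rose by 1.25 ± 0.30 (edgeR adjusted p = 0.0242). Each was lost without 4 of the 6 libraries, with adjusted p-values of up to 0.0931 and 0.079 without quercetin replicate 2. Both were also lost with the model and quercetin fitted alone (0.196 and 0.19), and Abcg5 with no filter on low counts (0.0543). Abca1 did not go up with them: its quercetin libraries had 147.0, 125.2 and 153.3 CPM, all below the model (log2 difference -0.28 ± 0.11, edgeR adjusted p = 0.137).

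With myricetin and kaempferol no LXR target passed edgeR (0.395% and 0.0395% of all genes did), with medians of 0.21 and 0.30. Unadjusted, 3 were higher and 0 lower with myricetin and 3 higher and 1 lower with kaempferol, and DESeq2 called 0 and 1 (higher). Abca1 had 157.0 ± 22.03 and 150.5 ± 10.8 CPM in these groups, and 172.6 ± 12.4 in the model (SD, n = 3). With kaempferol, Srebf1 was at the level of the control while Abca1 stayed above each control library.

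Several targets of SREBP-2 fell in the model, where Srebf1 was higher. Of 23 such genes of cholesterol synthesis and uptake, 8 fell and none rose against the control by edgeR, where 2.27% of all genes fell and 2.2% rose. Unadjusted, 15 of the 23 were lower and 0 higher, and DESeq2 called 12 lower and 0 higher. All 23 were on the lower side, and the median was -0.81 beside -0.01 over all genes. Tm7sf2, a sterol reductase, had 147.1, 118.0 and 136.5 CPM in the control and 63.1, 69.3 and 45.1 in the model (log2 difference -1.18 ± 0.16, edgeR adjusted p = 0.00413). The count of 8 was 2 when control replicate 3 or model replicate 1 was left out, 3 when model replicate 5 was, and at most 11 for the other libraries, and Tm7sf2 passed each time. With quercetin, 2 of the 23 rose and none fell by edgeR, where 4.06% of all genes rose and 3.76% fell. Unadjusted p and DESeq2 each gave 2 higher and 0 lower of the 23. Fdft1, squalene synthase, was 1 of them, with a log2 difference of 0.65 ± 0.18 (edgeR adjusted p = 0.0414). Fdft1 was lost without each library in turn, with an adjusted p of up to 0.149 without model replicate 5, and with no filter on low counts (0.0505). None passed edgeR with myricetin (22 of 23 lower, median -0.33) or kaempferol (23 of 23 lower, median -0.61). Over all genes edgeR called 0.395% and 0.0395%, the median was 0.01 in both, and 1505 and 1475 of 12658 had an unadjusted p under 0.05. Unadjusted, 8 and 13 were lower and 0 higher, and DESeq2 called 2 and 4, all lower.

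The genes whose pattern was most like that of Srebf1 were found by Pearson's r of log2 CPM over all 15 libraries, among 9017 genes with a mean of at least 5 CPM. The libraries of a group share its diet and compound, so r mostly follows the 5 group means, and it is given as a description with no p. The 8 most alike were Dclk3 (r = 0.894), Tmem63b (0.884), Bmf (0.861), Cdk10 (0.838), Tsfm (0.837), Slc22a23 (0.831), Hdac11 (0.826) and Phykpl (0.822). The ninth, Nudt16l1, had 0.818, so the list has no sharp end, and 5 of the 8 were also among the first 8 by Spearman's rho. Once the group means were removed, r fell to between -0.19 (Hdac11) and 0.54 (Dclk3 and Phykpl).

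Dclk3, a doublecortin-like kinase, averaged 7.50 CPM in control livers, 13.2 in the model, 17.4 under quercetin, 9.54 under myricetin and 7.36 under kaempferol. Bmf, a BH3-only protein of cell death, averaged 3.46 CPM in control livers, 11.4 in the model, 23.0 under quercetin, 11.6 under myricetin and 6.68 under kaempferol. The most opposite were Slc45a3 (r = -0.897), Phc2 (-0.858), Cdkn1a (-0.848) and Rb1cc1 (-0.839). Slc45a3, a sugar transporter, averaged 75.0 CPM in control livers, 48.8 in the model, 24.1 under quercetin, 46.3 under myricetin and 64.9 under kaempferol, the reverse of the order of Srebf1 apart from a small gap between the model and myricetin. Cdkn1a, the cell-cycle inhibitor p21, had 37.2, 9.50, 1.72, 8.61 and 17.3 CPM in the same groups.

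None of the lipogenic genes was among the most alike. Dgat2, which completes triglyceride synthesis, came first of them with r = 0.55 (rank 406 of 9017), and Fasn had r = 0.394 (rank 1142). Within groups, r with Srebf1 ran from -0.64 (Lpin1) to 0.64 (Fasn) over the lipogenic genes. The LXR targets Abcg5 and Abcg8 had r = 0.696 and 0.652, and Abca1 0.482, while Mylip had -0.007, Smpdl3a -0.14 and Pltp -0.64. The clock genes lay at both ends, with Per3, Dbp and Cry2 at 0.748, 0.732 and 0.713 over the libraries (-0.24, -0.43 and -0.18 within groups) and Clock, Arntl, Cry1 and Npas2 at -0.698, -0.661, -0.609 and -0.592. Nr1h3 had r = -0.044 and Srebf2 -0.338.

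**Figure D5:**
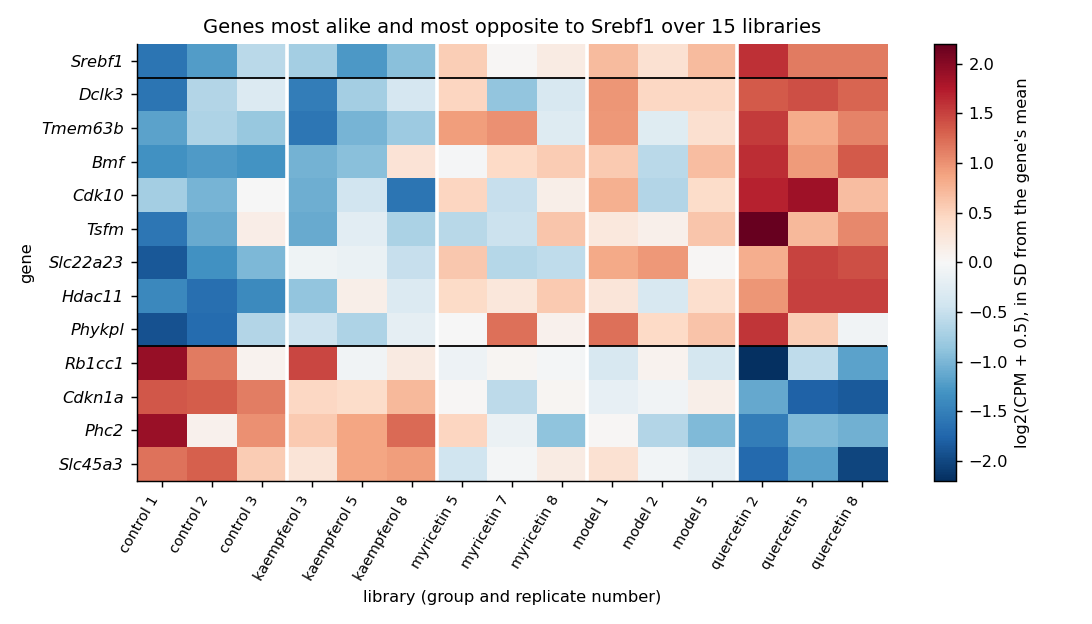
Heat map of log2(CPM + 0.5), as SD from the mean of each gene, for Srebf1, the 8 genes most like it and the 4 most opposite, over the 15 libraries in the order of the Srebf1 group means. Red is above and blue below the mean of the gene. The 3 quercetin libraries are mostly red for the alike genes and blue for Slc45a3 (24.1 CPM) and Cdkn1a (1.72 CPM).

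The genes next to Srebf1 on chromosome 11 did not share its pattern. Rai1, on the plus strand from 60104917 to 60199197, overlaps the end of Srebf1, so reads there cannot be told apart without strand, which is not stated for the counting. Its means ran from 12.1 to 15.2 CPM, lowest with quercetin, and it passed in no comparison (edgeR adjusted p = 0.276 to 0.831). Tom1l2 starts 2527 bases upstream of Srebf1 on the other strand and had means of 25.5 to 33.3 CPM, with no call in any of the 4 comparisons. Pemt, which makes phosphatidylcholine, and Atpaf2 had none either.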

How the data were processed

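The submitters' processing notes name the build GRCm38.p6 and, without role or order, RSEM 1.3.1, DESeq2 1.4.5, HISAT2 2.1.0 and Bowtie2 2.3.4.3. The authors deposited 1 table that gives, per the file headers, an expected count, an FPKM and a TPM value for every gene in each library. The deposited expected counts were not whole in 5.37% of values and were rounded, and they summed to 15.85 to 17.58 M per library. Strand is not given in the sources used here. The authors' deposited FPKM served only for the implied transcript length, and the authors' deposited TPM for comparing levels between genes.

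After filterByExpr, 12658 genes remained. After TMM scaling, edgeR 4.0.16 (R 4.3.3) fitted its robust quasi-likelihood model with 1 mean per group to all 15 libraries, with 10 residual degrees of freedom and a common biological coefficient of variation of 0.155. Tests were 2-sided with Benjamini-Hochberg adjustment over all genes tested at 0.05. Standard errors and 95% intervals derive from the F statistic and are approximate. Srebf1 was kept in the fit, but its p was not used. The code was tested on simulated data.

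Srebf1 and the gene lists were chosen with earlier results of these data known, so a list's count is no independent evidence. Named genes are Srebf1, every member of the lipogenic, SREBP maturation, LXR and insulin lists that passed, up to 4 passing members per direction of other lists by smallest p, 15 genes always reported (among them Fasn, Scd1, Insig1, Insig2 and Nr1h3), the 8 genes most like and 4 most unlike Srebf1 in r of log2 CPM (prior count 2), and the neighbours. Mbtps1, Mid1ip1, Insr, Angptl8, the other fasting genes, the marker genes, Dbp, Abcg8 and Dgat2 were named beside them where a paragraph needed them. Alternatives were DESeq2 1.42.0, RLE size factors, no filter, a fit of the groups compared alone, a replicate block, Spearman's rho for likeness, and leaving out each library. Promoter windows and motifs came from the RefSeq promoter table of GRCm38.p6, and protein sequences were not used here. A few genes that the rule takes stay in the counts but are not reported here by name.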

Additional observations from a re-analysis of the deposited data

How the results depend on the processing

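The Srebf1 log2 differences moved by less than the spread between libraries under every alternative run, with 1.37, 0.50, -0.15 and -1.24 under the replicate block. They kept their direction, which leaving out 1 library could not change where the ranges did not overlap. No value reversed. Over 14 same-numbered pairs of libraries the correlation of deviations from the group means ran from -0.24 to 0.1, with 0 above 0.1. Pairs with different numbers were not set beside them, so whether replicate numbers pair the libraries was not settled. In the order model against control, then quercetin, myricetin and kaempferol against the model, the block gave 43, 236, 5 and 1 genes called, DESeq2 1000 in the first, 219 in the third and 197 in the fourth, the fit of only the groups compared 125 in the third and 21 in the fourth, and no filter 18 in the fourth. Leaving out each library gave 82 to 919, 429 to 788, 13 to 65 and 0 to 39. For the model against the control, members called were 5 lipogenic, 2 maturation, 5 LXR target, 2 insulin and 1 promoter factor genes by DESeq2, 1 lipogenic, 4 maturation, 4 LXR target, 1 promoter factor and 3 SREBP-2 target genes with the groups compared alone, 1 lipogenic with no filter, and 0 lipogenic, 0 maturation, 0 LXR target and 2 SREBP-2 target genes under the replicate block. For quercetin they were 2 LXR cofactor and 1 insulin genes by DESeq2, 0 maturation, 0 LXR target and 2 insulin genes with the groups compared alone, 1 LXR target and 1 SREBP-2 target with no filter, and 1 lipogenic, 0 maturation, 0 LXR cofactor, 0 LXR target, 1 promoter factor and 0 SREBP-2 target genes under the block. For myricetin DESeq2 called 3 lipogenic, 1 insulin and 2 SREBP-2 target genes, and the groups compared alone 2 lipogenic. For kaempferol DESeq2 called 5 lipogenic, 1 maturation, 1 LXR target and 4 SREBP-2 target genes, and the groups compared alone 1 lipogenic and 1 LXR target. Leaving out each library gave, for the model against the control, 0 to 3 lipogenic, 0 to 1 maturation, 1 to 3 LXR target and 2 to 11 SREBP-2 target genes. For quercetin it gave 0 to 2 lipogenic, 0 to 2 LXR target, 0 to 1 insulin, 1 to 2 promoter factor and 0 to 1 SREBP-2 target genes, and for kaempferol 0 to 1 insulin and 0 to 1 SREBP-2 target genes. Among single genes, 33 of 696 values under other settings and 77 of 834 with a library left out lost the call, and 17 and 1 gained one. The cause of these moves was not tested. The blocked fit has 5 residual degrees of freedom against 10. With 3 libraries per group, differences near the median standard error of 0.162 were not detectable, and groups of 3 were not screened for single outlying libraries.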
